A study of Petunia x hybrida with 6 samples.

Results

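A group of 162 transcript components was followed across 6 RNA-Seq libraries of *Petunia x hybrida* corolla. Their mean level in buds was at least 16 times that on day 2 postanthesis. The corolla is the petal tissue of the flower. All flowers were wild type of the cultivar Mitchell diploid, and 3 bud libraries were set against 3 libraries of flowers on day 2 after opening. By the paper's methods, buds were of the day before opening, and both stages were harvested at the same evening hour. Other hours of the day are not covered. Each replicate was RNA of corollas pooled from at least 8 flowers, so that differences between single flowers, or between cell types within the petal, were averaged before sequencing. The paper used the series to look for a plastid transporter of phenylalanine. It searched by similarity to a transporter of *Escherichia coli* and by higher expression on day 2 than in buds. In pooled tissue, fewer cells of a type and less RNA per cell cannot be told apart.

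Members were chosen by their levels. Contigs, the transcript sequences that Trinity assembled from the reads, carry names such as comp15734_c1_seq2, in which comp15734 is the component, c1 a separate part of it (subcomponent) and seq2 a sequence path through that part. A component stands roughly for a gene or for a set of closely similar genes. Raw counts were summed over the contigs of a component, divided by a size factor for each library (the median of the ratios to the mean library) and expressed as CPM, with the mean library total in place of each library's own. A component was a member when it had at least 10 CPM in every bud library and a bud mean at least 16 times the day 2 mean. This held for 162 of the 7277 components that met the bud minimum, which is 2.23%, and for 0.201% of all 80785 components. Since these levels defined the group, the fall itself is a description and was not tested.

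A corolla bud shortly before opening is still growing, largely by expansion of its cells, and its epidermis is taking on its final cell shape and surface. After opening, growth ceases, and the petals of a scented petunia such as Mitchell turn to making volatile benzenoids and phenylpropanoids from phenylalanine, released mainly at night. The deposited counts pair no contig with a gene, and neither contig sequences nor an annotation were used here, so members are named by component number, no function is given to any of them, and the tissue label was not checked against marker genes.

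Total counts per library ranged from 87419488 to 111398763. The size factors of buds were 1.03 to 1.27, and those of day 2 were 0.842 to 1.001. Members took 2.98% to 3.42% of the counts of a bud library and 0.0525% to 0.065% of those of a day 2 library. Summed over members, the level fell from 27101 ± 1952 to 664 ± 59.3 CPM (SD, n = 3 per stage), a ratio of 40.8. In buds the sums were 26853, 29165 and 25284 CPM for replicates 1 to 3, and on day 2 they were 614, 730 and 648 CPM. Bud replicate 2 and day 2 replicate 2 were thus the highest of their stages, and the stages lay far apart.

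The ratio of bud to day 2 had a median of 42.4 among members, with quartiles of 22.8 and 117, and was 0.963 at the median of the 7115 other components with the bud minimum. Of the members, 64 had a ratio of 16 to 32, 33 of 32 to 64, 26 of 64 to 128, 22 of 128 to 256, 10 of 256 to 512 and 7 of more. The number of components thus became smaller with each doubling, and the 120 components with a ratio of 8 to 16 continued the same series below the limit. In all 162 members every bud library lay above every day 2 library, which was so for 2788 (38.3%) of the 7277 components with the bud minimum. The quasi-likelihood test of edgeR called all 162 lower on day 2. Among all 24677 components tested, 7447 (30.2%) were called lower at an adjusted p below 0.05 (Benjamini-Hochberg). The rule used the same contrast, so nothing is read from either count of members. In 118 members, the lowest bud library was at least 16 times the highest day 2 library. The smallest such ratio was 4.20, in comp13471.

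**Figure D1:**
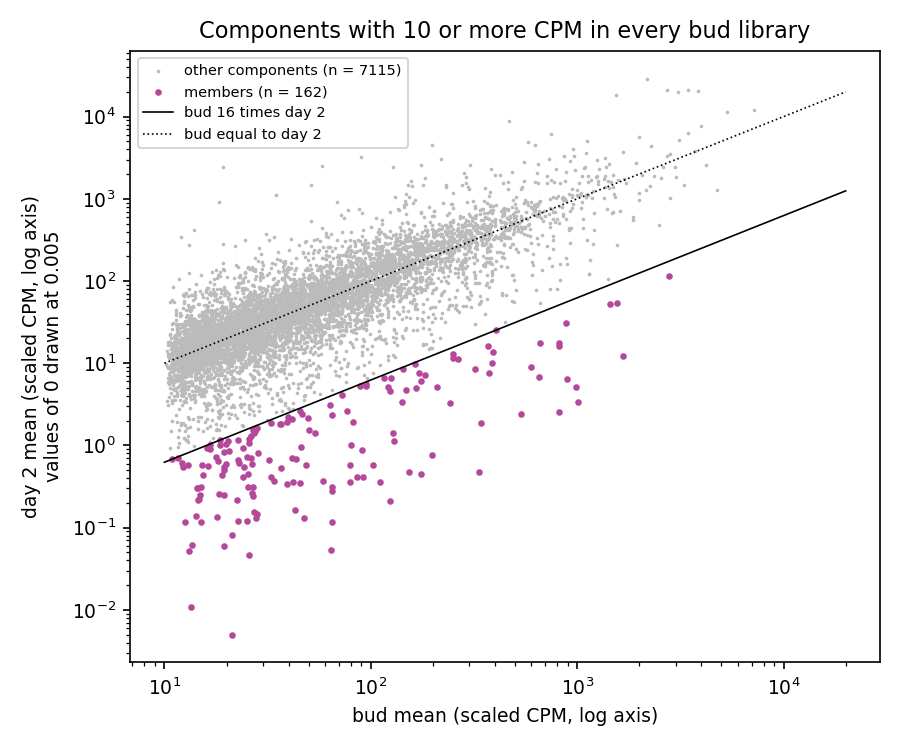
Mean level in buds (horizontal axis, CPM, log scale) against mean level on day 2 (vertical axis, CPM, log scale) for the 7277 components with at least 10 CPM in every bud library, with members in colour. The 162 members lie under the solid line that marks a ratio of 16, and the single member without day 2 counts is drawn at 0.005.

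Bud levels of members ranged from 10.9 to 2791 CPM, with a median of 40.6 CPM (39.0 CPM among the other components with the bud minimum). Members contributed unequally to the summed level. The 4 with the highest levels took 27.6% of the summed bud level of members, and the highest 10 took 47.6%. These 10 also took 45.1% of what remained on day 2.

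The highest bud level was that of comp18721, with 289470, 283065 and 369732 counts in buds and 9145, 13722 and 8420 on day 2. Its level fell from 2791 ± 145 to 114 ± 21.0 CPM (SD, n = 3), a ratio of 24.5, which left it above 100 CPM in each day 2 library. No other member kept a mean above 55 CPM on day 2. Component comp15585 had 195393, 172643 and 191046 counts in buds and 883, 1062 and 1358 on day 2, a ratio of 136. Component comp20027 had 177168, 149366 and 202727 counts in buds and 3470, 3369 and 7461 on day 2, a ratio of 28.9. In comp20027 the day 2 libraries did not match each other, since replicate 3 held 89.4 CPM and the others 39.1 and 34.0 CPM. Component comp20300, assembled in 36 contigs, stood at 1449 ± 167 CPM in buds and 52.8 ± 5.76 CPM on day 2, a ratio of 27.4.

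Components comp20584 and comp21171 were alike in contig number, contig length and the place of replicate 2 in each stage, which the rule did not use. The comparison of this pair was not planned. Each consisted of 1 short contig, of 689 and 732 bp. Bud counts of comp20584 were 124448, 88564 and 127480, and those of comp21171 were 102410, 63915 and 111995, so that replicate 2 was the lowest in both. On day 2, comp20584 had 284, 418 and 227 counts and comp21171 had 165, 344 and 188, with replicate 2 the highest in both. The ratios of bud to day 2 were 299 and 324. Whether their contigs share sequence was not analysed here.

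The remaining members of this level differed in how much they kept. Component comp15314 fell from 987 ± 278 to 5.19 ± 2.87 CPM, a ratio of 190.1, and its bud libraries ranged from 700 to 1255 CPM. Component comp16557 was the most even of them in buds, at 881, 903 and 903 CPM, and fell to between 4.72 and 9.22 CPM, a ratio of 139. Component comp18371 had 96444, 111869 and 84696 counts in buds and 2373, 4109 and 2042 on day 2, a ratio of 28.7. Component comp18476, which contains the longest contig of any member at 5553 bp, had a ratio of 46.1. Its day 2 counts were 1624, 2680 and 656, so that replicate 3 lay lowest.

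A component sum adds the counts of all its contigs. It does not allow for length or for a read counted on several contigs. Levels of different components were therefore also compared per kilobase of the most counted contig. On this scale comp20584 was the highest in buds, at 1464 CPM per kb, followed by comp21171 at 1119.5, comp15585_c0_seq1 at 1033 and comp6120 at 718 CPM per kb. Component comp6120 consisted of a single contig of 243 bp, the shortest of all members, and ranked 32 by its component sum. Of the 10 members with the highest sums, 5 were also among the highest 10 per kilobase. The median over members was 15.002 CPM per kb. This scale leaves out the other contigs of a member. The most counted contig held 25.6% of the bud counts in comp18721 and 100% in comp20584 and comp21171, so these ranks depend on contig number too.

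**Figure D2:**
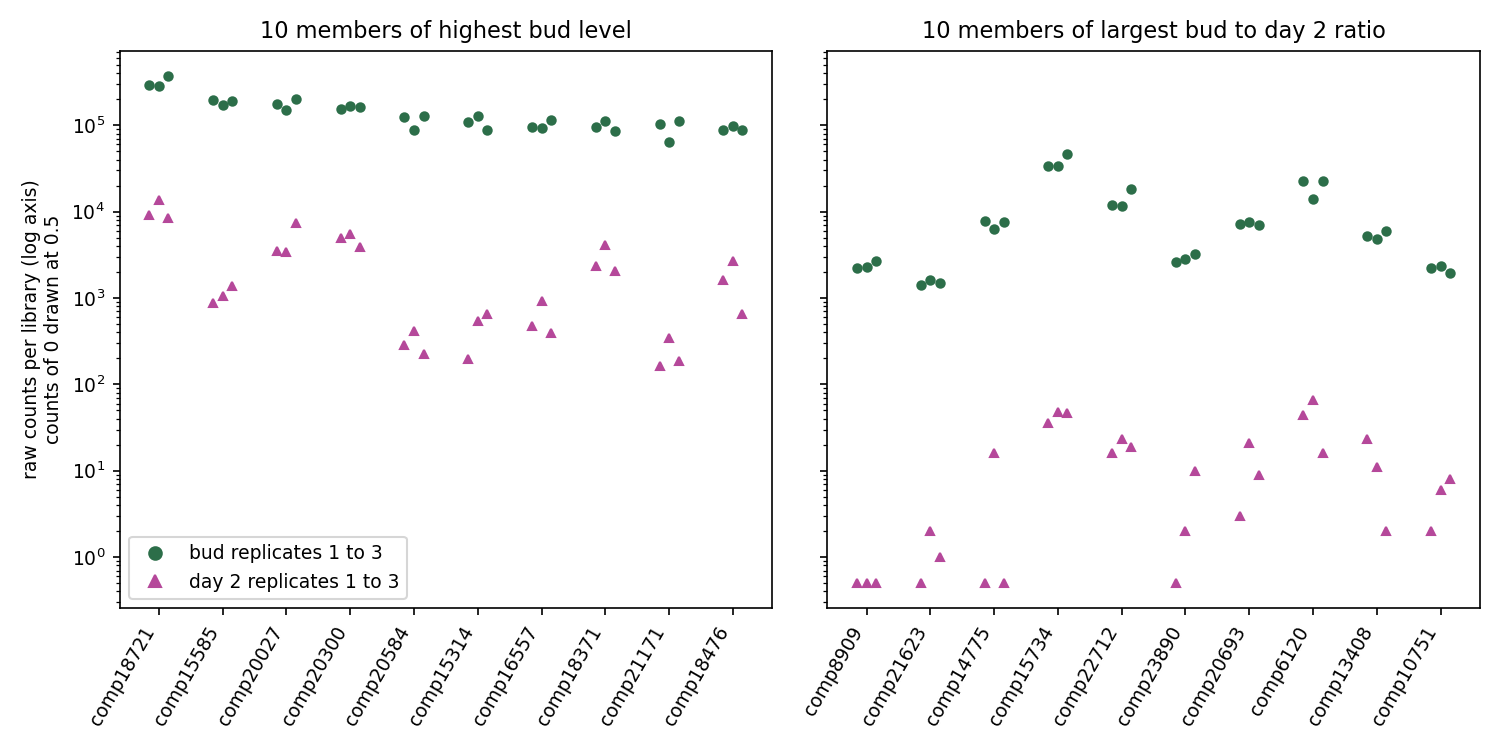
Raw counts in each of the 3 bud libraries (circles) and 3 day 2 libraries (triangles) on a log axis, for the 10 members of highest bud level (left) and the 10 of largest ratio (right). In every component shown, all bud libraries lie above all day 2 libraries, and comp8909 has no day 2 count.

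One member, comp8909, had no count in any day 2 library. Its bud counts were 2224, 2272 and 2682, a level of 21.3 ± 0.86 CPM (SD, n = 3), and its 4 contigs of 1049 to 2489 bp were all at 0 on day 2. Taking 3 counts over the 3 day 2 libraries as the limit that a count of 0 allows, its level was at least 1930.2-fold higher in buds. Component comp21623, a single contig of 1201 bp, had 1421, 1610 and 1475 counts in buds and 0, 2 and 1 on day 2. This is a ratio of 1261, with an exact Poisson 95% interval from 432 to 6115 for the day 2 counts. On the log2 scale its ratio of 10.30 became 9.69 without day 2 replicate 1 and 11.12 without replicate 2. Such limits and intervals cover counting error only and take counts as independent, which the reads of a pair, or a read counted on several contigs, are not.

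Component comp14775 shows what a summed day 2 count can consist of. It had 7720, 6264 and 7592 counts in buds and 0, 16 and 0 on day 2, a ratio of 1195. The 16 counts of day 2 replicate 2 were spread as exactly 2 on each of its 8 contigs. Without day 2 replicate 2, no count of this component remained on day 2, and without either of the others its log2 ratio of 10.22 became 9.62 or 9.61. The same even counts were seen in comp18346, whose day 2 counts of 30, 0 and 60 were made up of 0, 2 or 4 counts on each of its 27 contigs. The log2 ratio of comp18346 was 7.003, and it was 8.04 without day 2 replicate 3 and 6.40 without replicate 2. Among members with 1 contig, 83 values of day 2 libraries lay between 1 and 50 counts, and 50 of these were even and 33 odd.

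Among the other large ratios, those of comp15734 and comp22712 rested on the most even day 2 libraries. Component comp15734 had 33441, 33864 and 46042 counts in buds and 36, 48 and 46 on day 2, which is 335 ± 30.04 against 0.48 ± 0.073 CPM (SD, n = 3) and a ratio of 698. Component comp22712 had 11932, 11738 and 18314 counts in buds and 16, 23 and 19 on day 2, a ratio of 579. The day 2 counts of the remaining members of this kind were scattered. The ratio of comp20693 was 551, from day 2 counts of 3, 21 and 9, and on the log2 scale it went from 9.10 to 9.82 without replicate 2. That of comp23890 was 554, from 0, 2 and 10, and on the log2 scale it went from 9.11 to 11.29 without replicate 3 and to 8.51 without replicate 1. Component comp6120 had 22528, 14104 and 22445 counts in buds and 44, 65 and 16 on day 2, a ratio of 390.1. The ratio of comp13408 was 361, from day 2 counts of 23, 11 and 2, and on the log2 scale it went from 8.49 to 9.43 without replicate 1. The ratio of comp10751 was 328, from 2, 6 and 8 counts.

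Nearly all members kept some counts on day 2. Only comp8909 was without any, 7 members had at least 1 day 2 library without a count, and 8 members had fewer than 30 counts over the 3 libraries. In contrast, 37 members kept more than 1000 counts. The median ratio had no steady order along the bud level. It was 35.7 for the 37 members under 20 CPM in buds, 46.3 for the 56 members of 20 to 50 CPM, 80.1 for the 21 members of 50 to 100 CPM, 32.05 for the 20 members of 100 to 200 CPM, 37.9 for the 13 members of 200 to 500 CPM and 67.1 for the 15 members above 500 CPM. These medians rest on 13 to 56 members each.

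Near the limits, membership depended on small differences. The members with the lowest ratios were comp18555 (16.01), comp13193 (16.04) and comp14539 (16.10), and the components just under the limit were comp4683 (15.4), comp13588 (15.3) and comp1986 (14.9). Levels of comp13193 were high on both sides, at 395, 467 and 352 CPM in buds and 22.6, 30.1 and 23.0 CPM on day 2. At the bud minimum, comp8318, comp20835 and comp10906 had 10.1, 10.2 and 10.3 CPM in their lowest bud library, while comp12832, comp13403 and comp21502 had 9.95, 9.49 and 9.41 CPM and were left out, although the ratio of comp13403 was 137. The log2 ratio of comp13403 went from 7.10 to 7.80 without day 2 replicate 1 and to 6.48 without replicate 3, and that of comp12832 from 4.30 to 4.95 without day 2 replicate 1. Leaving out 1 library at a time gave between 153 and 172 members, and 135 of the 162 remained members under each of these omissions.

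The spread between bud replicates was wider at the median of members than at that of other components, which is given as a description with no test. The coefficient of variation (CV, the SD as a percentage of the mean) between the 3 bud libraries had a median of 15.6% among members, with quartiles of 9.68% and 23.5%. It was 6.65% among the 7115 other components with the bud minimum, with quartiles of 4.18% and 10.2%. The rule set a minimum for bud libraries but no limit on their spread. It did use their mean, so a high bud library can help a component pass. Without bud replicate 2, 14 members were lost and 5 components added. Without replicate 3 these numbers were 5 and 15, and without replicate 1 they were 3 and 1. The median bud level was similar in both sets, but the other components had a median ratio of 0.963, so most did not fall as members did. A bud CV above 30% was found for 24 members. The highest was that of comp10906, at 55.4%, with 3270, 3966 and 1286 counts. It was followed by comp9481, at 48.0%, with 2666, 4259 and 1982 counts, and by comp17451, at 47.2%, with 10579, 20240 and 11155 counts. In all 3 of these components, bud replicate 2 was the highest library.

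**Figure D3:**
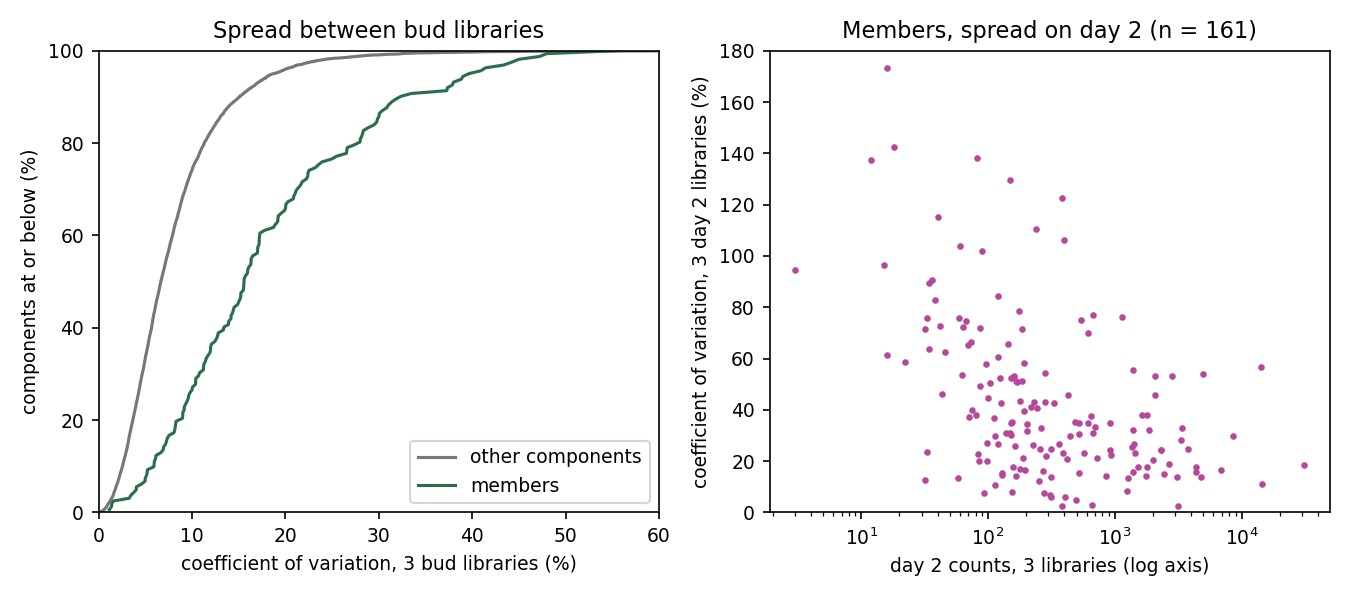
Left, share of components (vertical axis, %) with a coefficient of variation between the 3 bud libraries at or below the value on the horizontal axis (%), for members and for other components with the bud minimum. Right, coefficient of variation between the 3 day 2 libraries (%) against the day 2 counts (log axis) for the 161 members with counts. The members' curve lies to the right, with a median of 15.6% against 6.65%.

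Bud replicates 2 and 3 tended to lie apart in opposite directions, while most members were within 0.5 on the log2 scale for each library. Without replicate 2 the median bud CV of members was 10.2%, without replicate 3 it was 11.8% and without replicate 1 it was 18.5%. The same medians of the other components were 5.07%, 5.57% and 5.85%. Replicate 3 was the lowest bud library in 98 members (60.5%, against 31.3%), and in 33 (20.4%, against 0.871%) it lay at least 0.5 below the mean of replicates 1 and 2, as in comp10906. Replicate 2 was the highest of the 3 in 105 members (64.8%), against 42.7% of the other components. In 30 members (18.5%) it lay at least 0.5 on the log2 scale above the mean of replicates 1 and 3, which was the case for 59 (0.829%) of the other components. The 30 included comp15314, comp10921, comp15913, comp15607, comp2070, comp4899 and comp17451. In another 7 members (4.32%, against 0.478% of the other components) it lay at least as far below. These were comp21171, comp16863, comp2432, comp16769, comp13471, comp13494 and comp7764. Without bud replicate 2, the rule gave 153 members, of which 148 were among the 162.

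**Figure D4:**
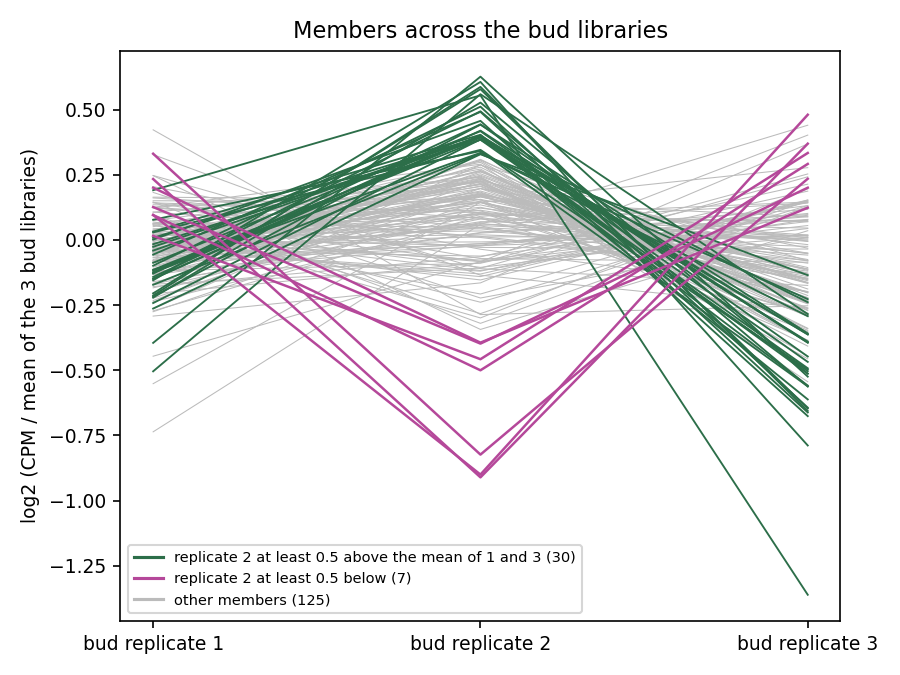
Level of each member in the 3 bud libraries relative to its own bud mean (vertical axis, log2), with 1 line for each of the 162 members. The coloured lines are the 30 members in which replicate 2 lay at least 0.5 above the mean of replicates 1 and 3 and the 7 in which it lay at least 0.5 below.

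Some members with a low bud replicate 2 were also uneven on day 2. Component comp16769 had 6642, 2812 and 7168 counts in buds and 8, 20 and 120 on day 2. Component comp13471 had 3109, 1469 and 4682 counts in buds and 51, 61 and 285 on day 2, and comp2432 had 9797, 4176 and 12415 in buds and 190, 87 and 400 on day 2. In these 3 components, picked after their values were seen, bud replicate 2 was the lowest bud library and day 2 replicate 3 the highest on day 2. Of the 7 members with a low bud replicate 2, day 2 replicate 3 was the highest in 4 and day 2 replicate 2 in the other 3, among them comp21171. Without day 2 replicate 3, the log2 ratio of comp16769 went from 6.40 to 8.35. Over the 154 members with at least 30 day 2 counts, the log2 position of bud replicate 2 relative to the other buds and that of day 2 replicate 3 relative to the other day 2 libraries had a Pearson correlation of −0.33 and a Spearman correlation of −0.25. Among the 7115 other components the values were −0.20 and −0.16. These are correlations across components that share the 6 libraries and their size factors, and components are not replicates.

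A different set was uneven through day 2 replicate 1. Component comp17451 had 303, 55 and 23 counts in the day 2 libraries, comp9431 had 178, 40 and 20, and comp17862 had 71, 2 and 9. Replicate 1 was the highest by a wide margin in each. Without it the log2 ratio of comp17451 went from 6.50 to 8.25 and that of comp17862 from 6.44 to 8.69. In buds, comp17451 and comp17862 were highest in replicate 2, with 20240 counts for comp17451 and 4111 counts for comp17862, whereas comp9431 was lowest there, with 7414 counts. A day 2 CV above 100% was found for 11 members, namely these 3, comp16769, comp13471, comp14775, comp18346, comp23890, comp13099, comp5884 and comp5953.

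Over all members with counts, the day 2 CV had a median of 34.5%, against 8.08% for the other components with the bud minimum. Low counts raise this spread. It had a median of 65.8% for the 40 members with fewer than 100 day 2 counts, 35.3% for the 51 members with 100 to 300, 26.8% for the 33 members with 300 to 1000 and 24.2% for the 37 members with at least 1000. Other components of any bud level in the same ranges of day 2 counts had medians of 96.4%, 23.8%, 17.2% and 8.82%. From 100 day 2 counts upwards, members thus had the higher median, while under 100 counts they had the lower one. Counts were not matched within a range, and the lowest range held 52978 other components against 40 members. The difference between the sets in a range can therefore reflect their counts as well, which was not tested. Day 2 replicate 2 was the highest library in 80 of the 161 members with counts (49.7%) and in 27.5% of the other components. Replicate 1 was the highest in 40 members and replicate 3 in 41.

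In the assembly, members had fewer and shorter contigs at the median than the other components with the bud minimum, again as a description with no test. They consisted of 630 contigs, with a median of 2 contigs per member against 4. A single contig made up 55 members (34.0%), against 12.8% of the others, and 13 members (8.02%) had more than 10 contigs, against 22.3%. More than 1 subcomponent was present in 15 members (9.26%), against 19.1%. The longest contig of a member had a median length of 1942 bp, against 2593 bp, and ranged from 243 to 5553 bp. In 19 members (11.7%, against 4.96%) it was shorter than 1000 bp. Members with 1 contig had a median ratio of 48.2 and those with several contigs one of 37.9. The longest contigs were those of comp18476 (5553 bp), comp4164 (4690 bp) and comp19033 (4562 bp), and the most contigs those of comp20300 (36), comp18346 (27) and comp18095 (25).

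Most contigs of a member fell, which the rule on their sum largely required of the contigs that hold most counts. This is a description and was not tested. Of the 592 contigs with at least 100 bud counts, 544 had a ratio of at least 16 on their own, and 33 of the 592 had no day 2 count. The other 48 contigs, in 23 members, had a ratio under 16, and 21 of these had a ratio under 4. Of the same 592, a pair was higher on day 2 than in buds, both in comp20300, and so were 15 contigs with fewer than 100 bud counts. Contig comp20300_c0_seq22, of 2268 bp, had 485, 416 and 640 counts in buds and 619, 614 and 578 on day 2, and comp20300_c0_seq15, of 1450 bp, had 244, 207 and 277 in buds and 309, 281 and 267 on day 2. After scaling they kept 147% of their bud level each. In the same component, the most counted contig comp20300_c0_seq14 had 40095, 43845 and 42372 counts in buds and 832, 917 and 581 on day 2. Other contigs of comp20300 also kept much of their bud level. The part kept was 73.9% to 79.6% for 5 more of those that kept most.

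The share of a component's counts that falls to each contig was not used by the rule and was tested across all components. Of 10719 components with at least 2 contigs tested, 1951 (18.2%) were called for a change in these shares between the stages (edgeR's contig share test, diffSpliceDGE with the Simes method, Benjamini-Hochberg adjusted p below 0.05). Among members, 20 of 105 tested were called, or 19.0%, which is near the share over all components. Few day 2 counts limit this test for members, and contigs of a component can share reads. In 79 of the 106 members with several contigs and day 2 counts, the same contig held the most counts in both stages.

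In some of the members called, 1 contig fell less than the others and took a larger share of what remained. Component comp18095 had 25 contigs (adjusted p = 2.4e-22 from edgeR's contig share test). All of its day 2 counts, 7, 22 and 14, lay on comp18095_c0_seq14, of 1204 bp, which held 50, 52 and 64 counts in buds, or 1.803% of the component. The other 24 contigs, of 1925 to 2658 bp, together had 2405, 3056 and 3581 counts in buds and 0 in each day 2 library. In the component's ratio of 175, the day 2 side therefore rests on that contig alone and the bud side mostly on the other 24.

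In comp10906 the contig comp10906_c0_seq2, of 1218 bp, held 200, 189 and 178 counts in buds and 83, 153 and 101 on day 2 (adjusted p = 0.00314 from edgeR's contig share test). It made up 6.65% of the bud counts and 92.8% of the day 2 counts, and without it the ratio of this member was 267 in place of 19.9. The uneven bud libraries of comp10906 were those of its other contigs, since comp10906_c0_seq3 had 1639, 1991 and 592 counts. Component comp14985 had a like division, in which comp14985_c0_seq2 rose from 26.7% of the counts to 85.5% (adjusted p = 3.06e-05), with 509, 458 and 543 counts on day 2, and the ratio without it was 97.4 in place of 19.1.

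In comp18371 the contig comp18371_c0_seq8, of 1617 bp, went from 10.9% of the bud counts to 64.8% of the day 2 counts (adjusted p = 9.54e-08 from edgeR's contig share test). Its bud counts were 11640, 8505 and 11803, lowest in replicate 2, whereas comp18371_c0_seq5 had 16111, 19844 and 13711, highest in replicate 2. The contigs of this component thus differed in their bud profile as well as in their fall, and the ratio without comp18371_c0_seq8 was 72.7 in place of 28.7. Contig comp18721_c0_seq2, of 709 bp, kept 81.6% of its bud level, with 3391, 3727 and 4067 counts in buds and 2059, 3694 and 1768 on day 2, and went from 1.19% to 24.0% of the counts of comp18721 (adjusted p = 6.61e-18). In comp15585 the contig of 440 bp, comp15585_c0_seq4, kept 87.7% with 41, 34 and 46 counts in buds and 25, 30 and 30 on day 2. It made up 2.57% of the day 2 counts, and the ratio without it was 139 in place of 136.

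The other members among the 10 with the lowest adjusted p were comp20300, comp15968, comp19033, comp15151 and comp19512. In comp19033 a contig of 724 bp had 15, 8 and 19 counts in buds and 61, 92 and 49 on day 2, which is 0.198% of the bud counts and 23.8% of the day 2 counts. This is one of the contigs with few bud counts that were higher on day 2. A share of 1.31% that became 10.8% was found for a contig of 804 bp in comp15968. The corresponding shares were 0.0512% and 1.799% in comp15151, and 0.277% and 4.67% in comp19512. In 7 members, leaving out the contig that gained most raised the ratio more than 2-fold. Not among these are comp18095, comp22712 and comp2158, which had no day 2 count left and thus no ratio. The other contigs of comp18095 held 2405, 3056 and 3581 bud counts, and those of comp22712 and comp2158 at most 9 in any bud library. The contig that gained most was chosen by its gain in these same counts, so a rise largely follows from the choice. Only its size is described, and the same was not computed for other components.

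**Figure D5:**
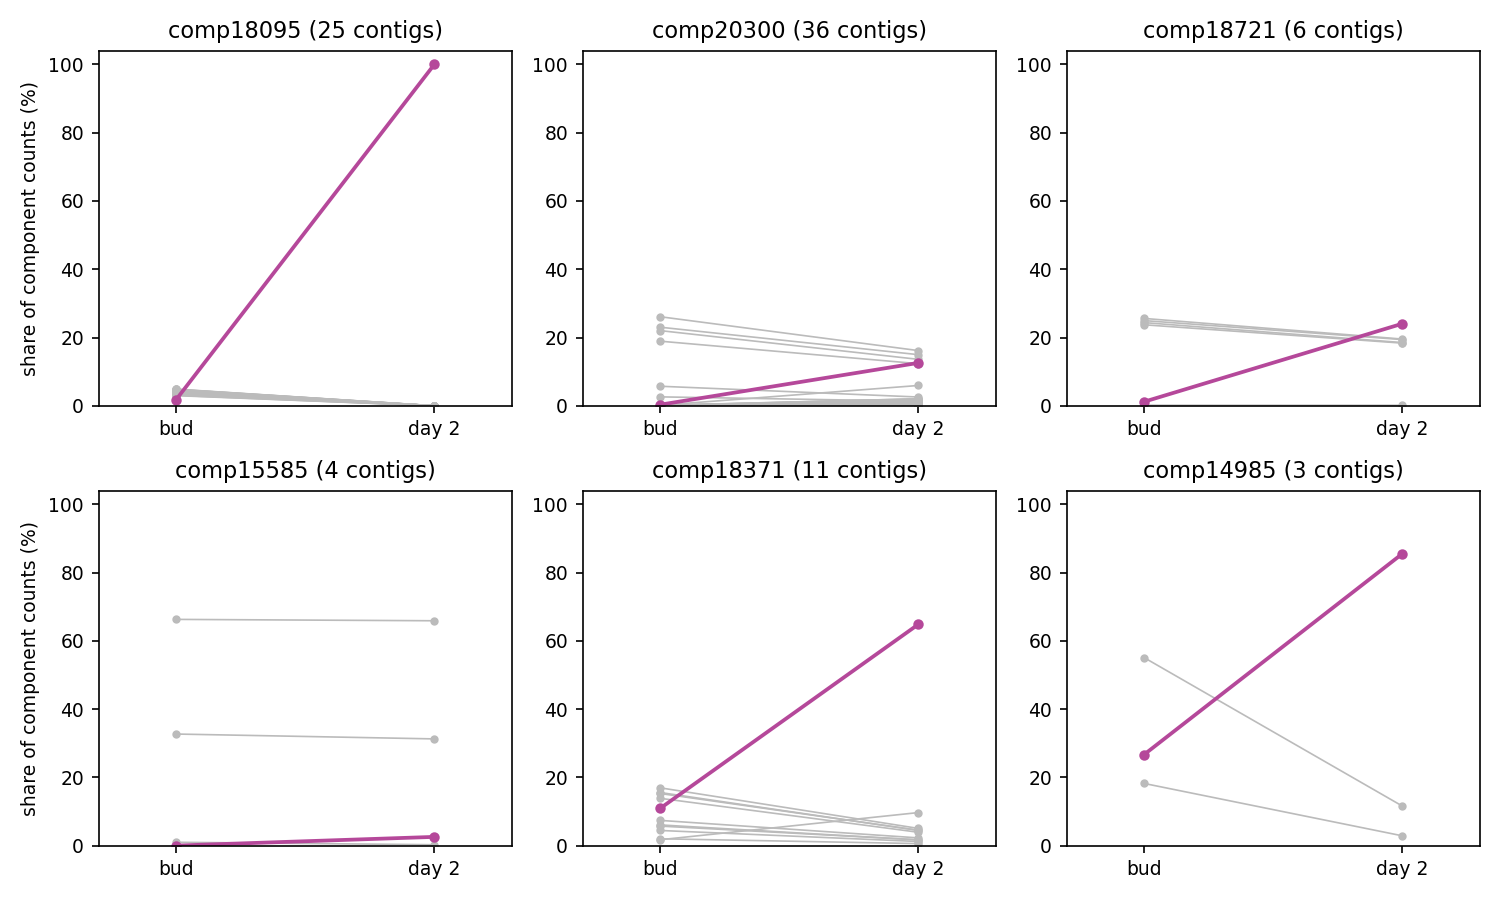
Share of a component's counts (vertical axis, %) that fell to each contig in buds and on day 2, each stage summed over 3 libraries, for 6 members that the contig share test called. The coloured line is the contig that gained most, which rose from 1.803% to 100% in comp18095 and from 26.7% to 85.5% in comp14985.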

How the data were processed

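The authors trimmed 100-bp paired-end reads and assembled them with Trinity. Mapping to the assembly was done with TopHat and counting with HTSeq. For trimming, the submitters' processing notes name Trimmomatic 0.22, which differs from the tool in the paper's methods. For each contig, the deposited values are its length and an unnormalized count in every library. The methods of the paper speak of reads assigned to a feature without ambiguity, but the sources used give no counting settings for read pairs or for contigs with shared sequence. Counts of the 6 libraries sum to 594478216, which exceeds the total the paper gives for reads mapped without ambiguity over all samples. How many counts 1 fragment contributed is not known. A fragment may be counted on several contigs of a component, so component sums, and ranks by them, can rise with contig number.

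Libraries were grouped by their titles. Counts were summed per component and scaled with size factors from the 29550 components without a zero. Tests used R 4.3.3 and edgeR 4.0.16 with TMM factors and filterByExpr defaults on all 6 libraries, with the stage as the only term. Component sums were tested with glmQLFTest and contig shares with diffSpliceDGE, with p-values adjusted over all components tested. Both were tested on simulated data. Alternatives were other scaling, no filter, limma-voom (limma 3.58.1), DESeq2 1.42.0, edgeR's exact test, a replicate block, contigs of at least 500 bp, the largest contig alone, other limits, and each library left out.

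Members and lists were chosen with earlier results of these data known. Components named in the text are the 10 highest in buds, the 10 largest ratios, those at 0 on day 2, those next to each limit, the extremes in contig number, length and CV, the 10 members of lowest adjusted p in the share test and those whose contigs kept most. Others, such as comp2432, comp13471 and comp9431, were chosen after their values were seen. No pathway list was used, since contigs carry no gene names here.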

Additional observations from a re-analysis of the deposited data

How the results depend on the processing

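The number of members followed the limits, with 282 at a ratio limit of 8 and 98 at one of 32, against 162 at 16. It was 216 and 109 at bud minimums of 5 and 20 CPM, and 118 where every bud library had to be at least 16 times every day 2 library. With TMM factors there were 162 members (161 shared), with the total count alone 210 (162 shared), with the largest contig of each component 156 (129 shared) and with contigs of at least 500 bp 160 (159 shared).

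Components called lower numbered 6640 to 7397 with 1 library left out, and members called for contig shares 17 to 20. With the total count alone, 11150 components were called lower, or 71.5% of those called, against 51.0% with TMM, and the log2 fold change had a median of −0.49 over the components tested, against −0.05. The count of components called lower was between 6765 and 8617 with the other scaling, the filter, the contig settings and the other tools. The share test was run with both scalings, no filter and contigs of at least 500 bp, but not with the other tools or the largest contig, and called 18 to 20 members. The replicate block gave 7146 components and 20 members. Replicate numbers were not taken to pair the libraries. Same-numbered libraries correlated in their deviations at 0.06, 0.23 and 0.05. Bud replicate 1 correlated best with day 2 replicate 3 (0.12), while bud replicates 2 and 3 correlated best with their same-numbered libraries. These values do not settle whether the libraries were paired.

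Of 43 named components with day 2 counts, none changed direction under the scaling, contig and leave-one-out settings. The log2 ratio moved by more than the replicate spread for 16 under the total count (median shift 0.45), for 9 of 42 with the largest contig, for 1 of 41 with contigs of at least 500 bp (comp19033, from 4.34 to 4.75) and for 1 without day 2 replicate 3 (comp23890). No value was had for comp18095 with the largest contig, for comp14775 without day 2 replicate 2, or for comp6120 and comp20835 with contigs of at least 500 bp. Members with few day 2 counts are limited by depth.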
